A study of Mus musculus with 6 samples.

Results

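The distal miRNA cluster of the Dlk1-Dio3 locus, from miR-379 to miR-410, was examined in small RNA from extracellular vesicles shed by apoptotic osteoblasts, the bone-forming cells. Members were chosen by name: every arm and copy of 38 mouse miRNA names assigned to the cluster. Of these names, 36 had at least 1 entry, which gave 56 members among 1712 entries of the table (25 from the 5p arm and 31 from the 3p arm of their hairpins). The 2 names without an entry, miR-299b and miR-1193, were not analysed here. Names are given without the mmu- prefix.

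The vesicles came from cultured osteoblasts that had been induced to apoptosis and kept in serum-free medium, and were collected by ultracentrifugation. Control libraries (n = 3) are from SIRT6f/f mice, which carry floxed Sirt6 alleles and no Cre. Knockout libraries (n = 3) are from Prx1cre;SIRT6f/f mice, in which Cre under the Prx1 enhancer acts in limb bud mesenchyme and the cells derived from it. Both groups therefore carry the floxed alleles, and Sirt6, a nuclear deacetylase, is itself not read by small RNA libraries. The labels used here do not give the age of the mice, whether animals were pooled, or whether the replicates are separate cultures, so p-values measure only the spread between these libraries, which may be technical. The design compares the miRNA content of the vesicles between the genotypes.

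Dlk1-Dio3 is an imprinted locus. Its non-coding RNAs, the hairpins of this cluster among them, are expressed from the maternal chromosome, where an unmethylated control region keeps them active, whereas the protein-coding genes Dlk1, Rtl1 and Dio3 are expressed from the paternal one. The hairpins are cut from a long transcript by Drosha and Dicer, so that many miRNAs can share 1 primary RNA and still reach different mature levels. The cluster is found in placental mammals and is known for its activity in the embryo, placenta and brain. miR-134 is known for restraining Limk1 in neuronal dendrites, and the miR-376 hairpins for A-to-I editing.

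In RefSeq on GRCm38.p6 the hairpins of 36 of the 38 names could be placed; they span 38.9 kb of chromosome 12, from 109709060 to 109747960, with 35 on the plus strand and miR-299b on the minus strand. In the GENCODE M21 annotation of GRCm38, 23 of these hairpins lie outside the lincRNA gene Mirg (109729764 to 109749460), 9 overlap a Mirg exon and 4 lie in a Mirg intron. The files name no genome build, and positions and sequences were matched by miRNA name. RefSeq held a mature sequence for 52 of the 56 members.

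The sequences below are those of the 3 members that passed the test, of the abundant members set beside them, and of related hairpins with similar seeds. The last is that of miR-376a-5p, a low member whose groups did not overlap. Capitals mark the seed, bases 2 to 8 counted from the 5′ end, which is the part that pairs with target mRNAs.
miR-494-3p (chr12:109715367-109715388, plus strand): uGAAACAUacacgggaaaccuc
miR-668-3p (chr12:109734774-109734797, plus strand): uGUCACUCggcucggcccacuacc
miR-487b-5p (chr12:109727347-109727367, plus strand): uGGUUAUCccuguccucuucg
miR-544-5p (chr12:109729335-109729355, plus strand): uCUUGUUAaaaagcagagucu
miR-409-5p (chr12:109743172-109743194, plus strand): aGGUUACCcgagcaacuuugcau
miR-409-3p (chr12:109743204-109743225, plus strand): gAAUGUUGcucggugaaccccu
miR-411-5p (chr12:109710190-109710210, plus strand): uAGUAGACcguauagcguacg
miR-379-5p (chr12:109709065-109709085, plus strand): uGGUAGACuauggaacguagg
miR-380-3p (chr12:109711842-109711863, plus strand): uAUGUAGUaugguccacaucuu
miR-381-3p (chr12:109726870-109726891, plus strand): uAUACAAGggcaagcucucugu
miR-300-3p (chr12:109724363-109724384, plus strand): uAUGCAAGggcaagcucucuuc
miR-376a-5p (chr12:109723786-109723807, plus strand): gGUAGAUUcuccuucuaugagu

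Few members share a seed. The 52 sequences hold 49 seeds, and 3 of these belong to a pair of members: AUGUAAC to miR-411-3p and miR-379-3p, GGUUGAC to miR-758-5p and miR-1197-5p, and UGGAUAU to miR-376c-5p and miR-376b-5p. Within related hairpins the seeds differ by A2G between miR-411-5p and miR-379-5p and by A4G between miR-381-3p and miR-300-3p, with positions counted from 1 at the 5′ end, the base of the one named first before the number and that of the other after it. No other mature sequence of the mouse RefSeq table has the seed of miR-494-3p, miR-668-3p or miR-487b-5p.

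As a whole, the cluster was scarce in these vesicles, and most of its reads were miR-494-3p. Values are RPM, reads scaled to a library total of 1000000 over all entries of the table. In the control libraries all 56 members together reached 1092, 746 and 722 RPM, of which miR-494-3p made up 75.1%, 67.3% and 65.7%. Only 6 members had a mean of at least 10 RPM over the 6 libraries, 7 more lay between 3 and 10 RPM, and 43 lay below 3 RPM. From the steps between values, 1.63 to 2.22 RPM correspond to 3 reads, depending on the library, and the depth was 1352045 to 1838239 reads. Between 29 and 33 members were above 0 in a library. Most members were therefore near the lowest level that could be listed, and a low or zero value does not show absence.

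The knockout libraries held more of the cluster in total, a difference that was not seen once miR-494-3p was left out. Relative values from vesicles in bulk cannot tell fewer vesicles or cells of a type apart from less RNA in each. Totals of the 56 members were 2147, 2006 and 3107 RPM in the knockout libraries, against 853 ± 207 RPM (mean ± SD, n = 3) in the control group, and the groups did not overlap. Without miR-494-3p the total was 272, 244 and 248 RPM in the control libraries and 240.01, 232 and 156 RPM in the knockout libraries. The direction then turned: the mean went from 254 ± 15.1 to 209 ± 46.5 RPM (ratio 0.822, against 2.84 with miR-494-3p). Knockout replicates 1 and 2 lay just under the lowest control library and replicate 3 well below it, and without replicate 3 the ratio was 0.927. Leaving out miR-544-5p as well gave 158 ± 11.1 and 134 ± 29.6 RPM, and the groups overlapped. The members that the test described below did not call are a choice made from the values themselves. They summed to 256, 237 and 240.2 RPM in the control and 192, 185 and 121 RPM in the knockout libraries, with no overlap (ratio 0.679). Leaving out the called members, all of them higher, had to lower this ratio. After rescaling to annotated miRNAs outside the fragment-like list described below, the ratio of the cluster total was 4.08 with miR-494-3p and 1.12 without it. The direction without miR-494-3p thus turned with the scaling. Those annotated miRNAs together had a ratio of 0.730 in RPM, and the sum of the members not called was not rescaled. No p is given for these sums, because the members were chosen with earlier results known.

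**Figure D1:**
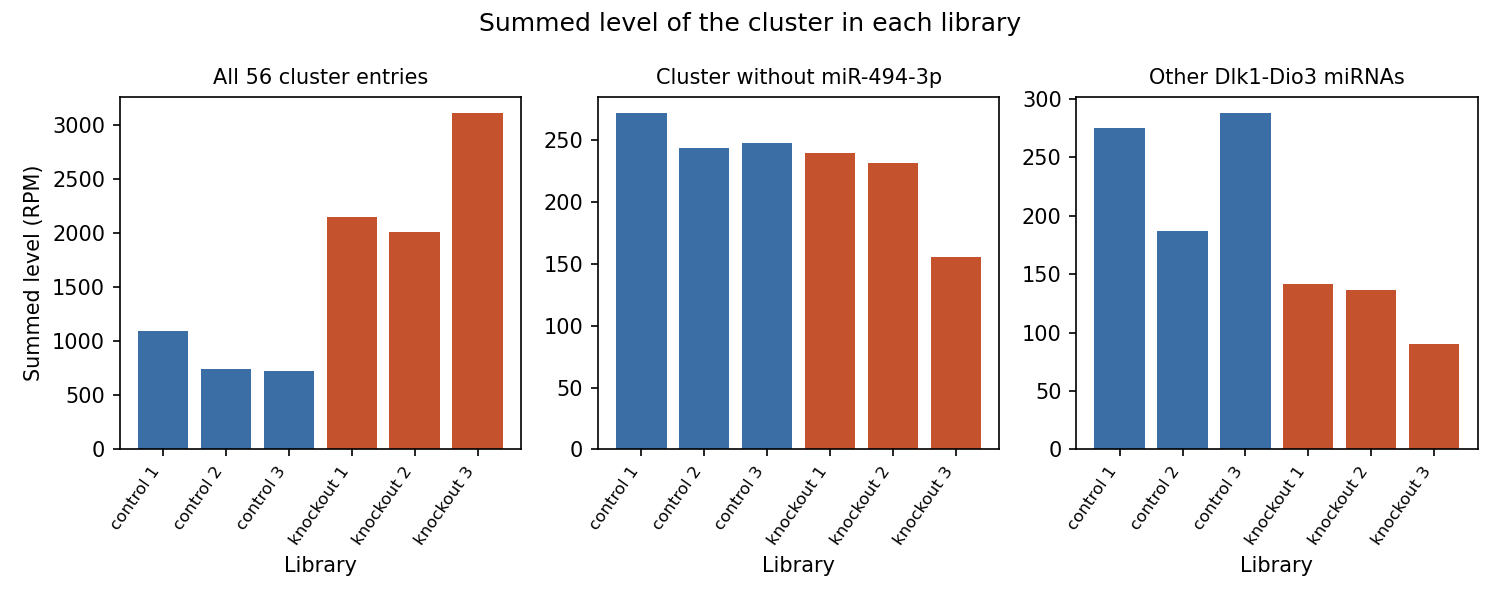
Summed RPM per library (bars from 0) for all 56 cluster entries, the cluster without miR-494-3p and the other Dlk1-Dio3 miRNAs, in control (blue) and knockout (orange) libraries, each panel with its own axis. With miR-494-3p the knockout libraries are at 2006 RPM or more and the control libraries at 1092 RPM or less; without it all libraries lie between 156 and 272 RPM.

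Of the 56 members, 33 passed the filter on low values (3 or more libraries at 1 RPM or higher) and were tested with limma on log2(RPM + 1) together with all 1114 tested entries. Past an adjusted p of 0.05, 0 members fell, while miR-668-3p and miR-494-3p rose in the knockout vesicles. miR-487b-5p also passed, but with no control reads it entered the test through the knockout libraries alone and had to differ, so its p supports nothing here. The share of all tested entries called higher was 2.15% and that called lower 2.69%. Over the whole table limma called 24 entries higher and 30 lower, against 34 and 1 after rescaling to annotated miRNAs and 32 and 8 after centring each library on its median. Before adjustment, limma gave 3 higher and 5 lower members with p under 0.05. The median log2 fold change was -0.25 over the 33 members, -0.26 without miR-494-3p and -0.27 over all tested entries, and 19 of the 33 (57.6%) lay below 0, against 60.1% of all entries. Of the 30 members not called, 19 (63.3%) lay below 0, with a median of -0.32. Leaving out the called members, all above 0, had to raise that share and could only lower the median. Groups did not overlap for 4 members with the knockout above (6.28% of all tested entries) and for 5 with the knockout below (19.3%). The 4 include miR-487b-5p and miR-485-5p, the 2 members that passed the filter through the knockout libraries alone.

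The other 23 members were too low to test. None of them exceeded 3.07 RPM in any library, 13 were above 0 in 1 library and 10 in 2 libraries. They include miR-134-5p, at 1.44 and 1.48 RPM in control replicates 1 and 2 and listed at 0 in the other libraries, and miR-376c-3p, at 2.16 and 3.07 RPM in control replicates 1 and 3 and listed at 0 elsewhere. With so few reads no difference was detectable for them.

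miR-494-3p rose more in absolute terms than any other member. Its level was 819.8, 502 and 475 RPM in the control libraries and 1907, 1774 and 2952 RPM in the knockout libraries. Every knockout library lay above every control library, with control replicate 1 the highest of its group and knockout replicate 3 the highest of all. The mean went from 599 ± 192 to 2211 ± 645 RPM (SD, n = 3 each), a ratio of 3.69, and the log2 fold change was 1.89 ± 0.29 (SE, limma adjusted p = 1.93e-08). Among the annotated miRNAs of its library it stood at rank 59, 67 and 71 in the control group and at rank 36, 37 and 21 in the knockout group.

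The very small p rests on a spread pooled over entries of similar level: limma put all weight on its mean-variance trend. The spread of miR-494-3p itself did not enter. With a prior that ignores the trend, an alternative chosen after seeing the data, limma called 0 entries of the whole table (before adjustment, 55 higher and 75 lower had p under 0.05), and the adjusted p of miR-494-3p was 0.201. Without control replicate 3 the log2 fold change was 1.75 and the limma adjusted p = 0.0637, against 0.000407 when the filter on low values was repeated on the 5 remaining libraries. In the other 5 settings with a library left out it passed, at 1.66 to 2.14.

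Ratios within the cluster do not depend on how a library is scaled. The level of miR-494-3p was 3.02, 2.06 and 1.92 times that of the remaining members together in the control libraries, and 7.95, 7.66 and 18.97 times in the knockout libraries. Set against miR-544-5p, the next most abundant member, it was 8.01, 5.18 and 5.33 times as high in the control and 22.7, 20.8 and 53.7 times as high in the knockout libraries. In both ratios the groups stood apart. Against miR-668-3p they did not: miR-494-3p was 51.7, 67.9 and 64.4 times as high in the control and 47.2, 40.3 and 169.6 times as high in the knockout libraries.

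The other arm of the same hairpin did not follow it in level. miR-494-5p was listed at 1.44, 0 and 1.23 RPM in the control and at 0, 0 and 1.09 RPM in the knockout libraries, that is at 2 reads or none in each. The log2 fold change was -0.46 ± 0.69 (limma adjusted p = 0.754), a value that these few reads hardly constrain.

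**Figure D2:**
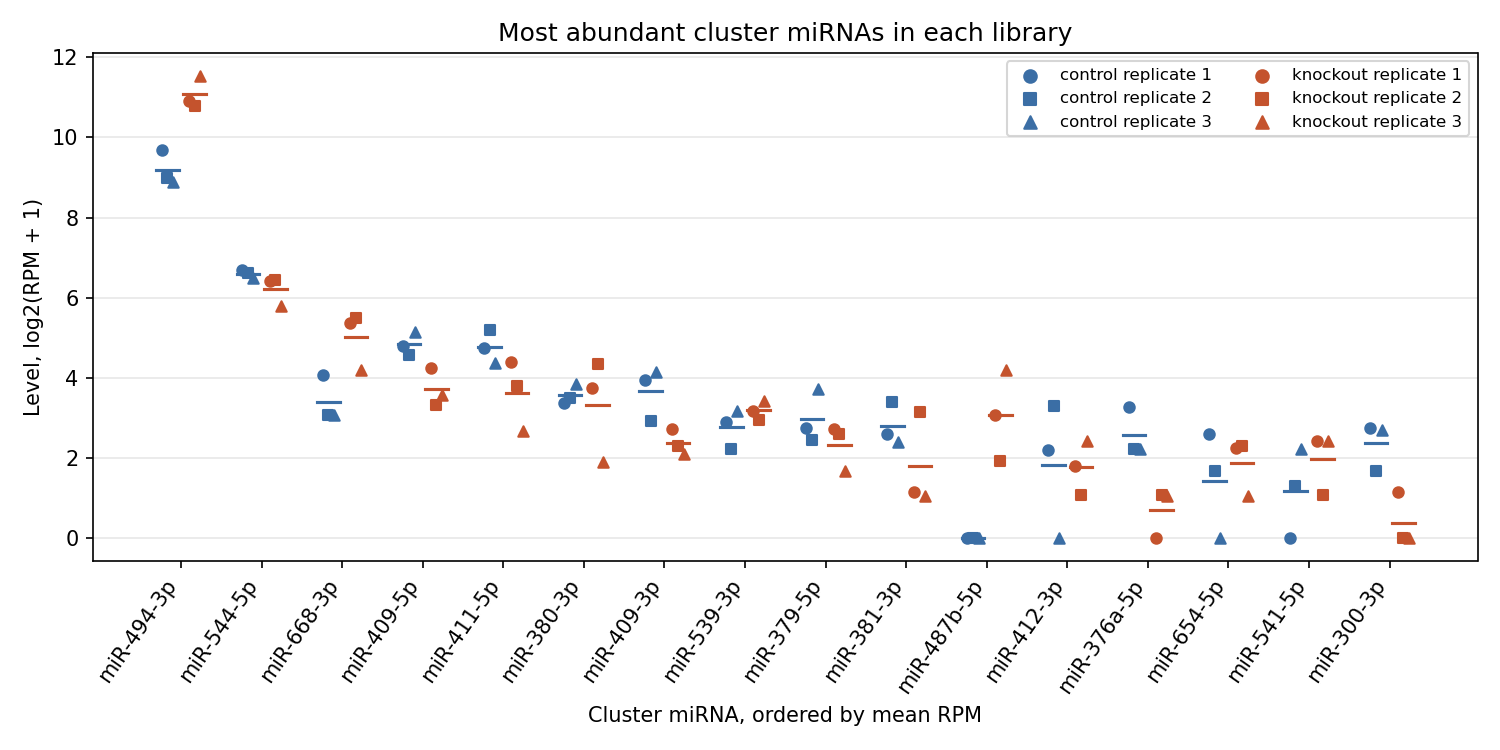
Level as log2(RPM + 1) in each library for the 16 members with the highest mean RPM; points are libraries (shape gives the replicate), horizontal lines the group means of the plotted values. miR-494-3p stands far above the others in both groups, and its knockout libraries lie above its control libraries.

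Entries annotated as miR-6236, miR-6238, miR-6239, miR-6240 and miR-3968, called fragment-like here because such short entries can be pieces of ribosomal or transfer RNA, had a larger summed share in the knockout libraries. In limma 3 of the 5 were higher, miR-3968 was lower (log2 fold change -1.49) and miR-6240 did not pass. Together they took 1.96% to 3.83% of reads in the control and 6.42% to 7.62% in the knockout libraries. The ratio of miR-494-3p to their sum was 0.0214, 0.0256 and 0.0214 in the control and 0.0250, 0.0276 and 0.0413 in the knockout libraries, with overlap between the groups. The part of these entries in the result was not tested. The entries without a miRNA name took 43.1% to 50.01% of reads in the control and 52.8% to 62.8% in the knockout libraries. Annotated miRNAs outside the fragment-like list took 48.0% to 53.0% and 30.1% to 40.8%. Neither pair of ranges overlapped, and the part of this shift in the results was not tested. RPM sums to a fixed total, so a larger share for some entries leaves less for all others.

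miR-668-3p, whose hairpin overlaps a Mirg exon, also rose. It was at 15.9, 7.40 and 7.37 RPM in the control libraries and at 40.4, 44.1 and 17.4 RPM in the knockout libraries, or 10 to 22 reads against 32 to 78. The lowest knockout library, replicate 3, lay only just above control replicate 1. The mean went from 10.2 ± 4.89 to 34.0 ± 14.5 RPM, and the log2 fold change was 1.62 ± 0.45 (limma adjusted p = 0.0146). As a share of the cluster without miR-494-3p it took 5.84%, 3.03% and 2.98% in the control and 16.8%, 19.0% and 11.2% in the knockout libraries. The call was lost without control replicate 2 (limma adjusted p = 0.191), control replicate 3 (0.350), knockout replicate 1 (0.125) and knockout replicate 2 (0.142), with log2 fold changes of 1.38 to 1.45, and with the prior that ignores the trend (0.281). The 5p arm of miR-668 had no entry in the table.

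miR-487b-5p had no reads listed in the control group and stood at 7.46, 2.82 and 17.4 RPM in the knockout libraries, which is 12, 5 and 32 reads. The knockout mean was 9.23 ± 7.45 RPM, with replicate 3 far above replicate 2. The fitted log2 fold change of 3.07 ± 0.75 (limma adjusted p = 0.00308, with the limit given above) depends on the pseudocount, being 3.96 with 0.5 RPM and 1.38 with 5 RPM, and is no estimate of a fold. Its call was lost without control replicate 2 (limma adjusted p = 0.0696), control replicate 3 (0.152) and knockout replicate 3 (0.0751), and with the prior that ignores the trend (0.186). The 3p arm, miR-487b-3p, was listed at 1.44, 1.48 and 0 RPM in the control and at 1.24, 0 and 0 RPM in the knockout libraries. Another member with no control reads, miR-485-5p, named after its values were seen, was at 2.49, 1.13 and 1.09 RPM in the knockout libraries, 4 reads at most (limma adjusted p = 0.269).

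**Figure D3:**
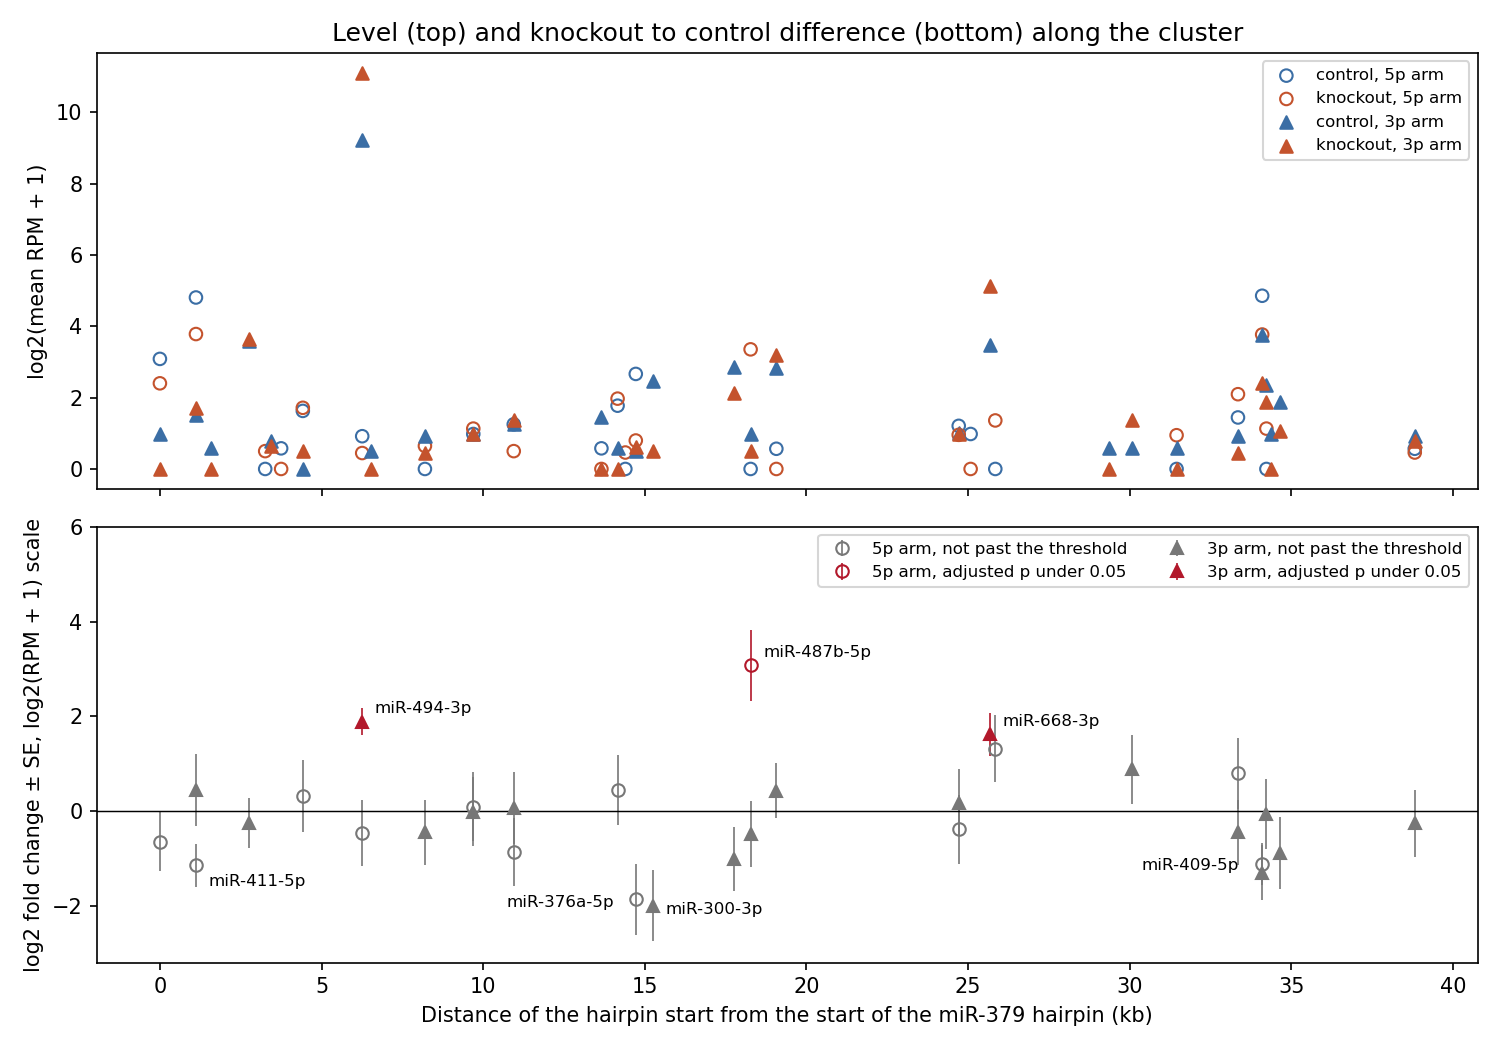
Members placed by the distance of their hairpin from that of miR-379 (kb): top, log2 of the group mean RPM plus 1; bottom, log2 fold change of knockout against control with its SE for the tested members, red where the adjusted p is under 0.05. miR-544 and miR-666 are not plotted, having no RefSeq hairpin. The higher members miR-494-3p and miR-668-3p lie 6.26 and 25.7 kb from the start, with members above and below 0 between them. miR-487b-5p (18.3 kb) is also red, but it had no control reads and had to differ.

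The called members miR-494-3p and miR-668-3p are not neighbours. Their hairpins start 6.26 kb (miR-494) and 25.7 kb (miR-668) from that of miR-379. The hairpin of miR-487b, whose 5p arm passed without control reads, starts at 18.3 kb. Among members with a RefSeq hairpin, 13 that were tested and not called lay between miR-494 and miR-668. Of these, 8 had a log2 fold change below 0 and 5 above, from -1.995 (miR-300-3p) to 0.44 (miR-654-5p). Without a RefSeq hairpin, but placed there by mature sequence, were miR-544-5p (-0.38) and miR-666-5p (0.36), also tested and not called. Of the members past the threshold, miR-494-3p (GC content 45.5%) and miR-668-3p (66.7%) come from the 3p arm. miR-487b-5p (52.4%), which passed with no control reads, comes from the 5p arm. The median GC content was 45.5% over the members with a sequence.

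miR-544-5p, the second most abundant member, did not pass the test. It was at 102, 96.9 and 89.1 RPM in the control and at 83.9, 85.3 and 54.9 RPM in the knockout libraries. All knockout values lay below all control values, but the log2 fold change was only -0.38 ± 0.33 (limma adjusted p = 0.600), and it was 0.07 after rescaling to annotated miRNAs. Within the cluster without miR-494-3p it took 37.8% ± 1.86 of the control and 35.7% ± 0.988 of the knockout reads. Its partner arm miR-544-3p was above 0 in 1 library of each group.

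Both arms of miR-409, whose hairpin lies in a Mirg intron, had lower values in the knockout libraries, without passing the test. miR-409-5p was at 26.7, 22.9 and 34.4 RPM in the control and at 18.0, 9.04 and 10.9 RPM in the knockout libraries. For miR-409-3p the values were 14.4, 6.66 and 16.6 RPM and 5.60, 3.95 and 3.26 RPM. In each arm the groups did not overlap, and the log2 fold changes were -1.12 ± 0.45 (limma adjusted p = 0.112) and -1.30 ± 0.58 (limma adjusted p = 0.177). With both arms this low, the ratio of 5p to 3p could be followed for miR-409 only at a minimum mean of 3 RPM per arm, where the log2 ratio was 0.18 ± 0.33 higher in the knockout group (limma adjusted p = 0.929). In that fit limma called 0 of 83 hairpins (0.0%, with 10 at p under 0.05 before adjustment), and at a minimum of 10 RPM it called 3 of 36 (8.33%), none of which is from the cluster because no hairpin of it reached that level.

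miR-379, miR-411 and miR-380 are related hairpins at the start of the cluster. miR-411-5p was at 26.0, 35.5 and 19.7 RPM in the control and at 19.9, 13.0 and 5.44 RPM in the knockout libraries, where knockout replicate 1 reached just into the control range (log2 fold change -1.14 ± 0.45, limma adjusted p = 0.112). Without knockout replicate 3 this value was -0.67. miR-379-5p was at 5.77, 4.44 and 12.3 RPM against 5.60, 5.08 and 2.18 RPM (-0.65 ± 0.63, limma adjusted p = 0.649). miR-380-3p was at 9.37, 10.4 and 13.5 RPM against 12.4, 19.2 and 2.72 RPM (-0.25 ± 0.52, limma adjusted p = 0.811), and turned to 0.46 without knockout replicate 3 and to 0.14 after rescaling. Among these relatives, miR-411-5p and miR-379-5p were below 0 in all 20 alternatives run, miR-380-3p had no steady sign, and none passed the test. The alternatives refit the same libraries and several cannot change the log2 fold change, so a constant sign adds no support. Without control replicate 3, miR-379-5p was at -0.27. The partner arms were low: miR-411-3p was at 4.33, 0 and 1.23 RPM against 1.87, 3.95 and 1.09 RPM (0.44 ± 0.76, limma adjusted p = 0.772), and miR-379-3p was above 0 only in control replicates 1 and 2, at 1.44 and 1.48 RPM.

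In the middle of the cluster, miR-376a-5p and miR-300-3p had the lowest log2 fold changes of the 33 tested members. miR-376a-5p was at 8.65, 3.70 and 3.69 RPM in the control and at 0, 1.13 and 1.09 RPM in the knockout libraries (-1.86 ± 0.75, limma adjusted p = 0.117). miR-300-3p, named here after its values were seen, was at 5.77, 2.22 and 5.53 RPM against 1.24, 0 and 0 RPM (-1.995 ± 0.76, limma adjusted p = 0.0944). Both rest on at most 12 reads in a library and on at most 2 in a knockout library. miR-381-3p, whose seed differs from that of miR-300-3p by 1 base, was at 5.05, 9.62 and 4.30 RPM against 1.24, 7.91 and 1.09 RPM, with overlap (-1.01 ± 0.68, limma adjusted p = 0.439).

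A further pair of the more abundant members, miR-539-3p and miR-412-3p, showed no difference that could be told from the spread. miR-539-3p was at 6.49, 3.70 and 7.99 RPM in the control and at 8.08, 6.78 and 9.79 RPM in the knockout libraries (0.42 ± 0.58, limma adjusted p = 0.735). miR-412-3p was at 3.60, 8.88 and 0 RPM against 2.49, 1.13 and 4.35 RPM (-0.06 ± 0.74, limma adjusted p = 0.956), and its sign turned in 9 of 20 alternatives. Their partner arms and that of miR-376a-5p were too low to test, with miR-539-5p above 0 in 1 library and miR-412-5p and miR-376a-3p in 2 each. The other 20 tested members had a mean below 3 RPM; the lowest limma adjusted p among them was the 0.0944 of miR-300-3p.

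The other miRNAs of Dlk1-Dio3, most of them on the side of Meg3, Rtl1 and Rian, were listed from 20 names, of which 18 had entries (28 in all). The list also holds miR-453, which lies within the span of the cluster and was too low to test. Of 11 tested, 1 was higher and 1 lower, in limma, with a median of -0.71. Over all tested entries 2.15% were called higher and 2.69% lower, and the median was -0.27. For the 269 annotated miRNAs averaging 10 RPM or more, fragment-like entries left out, the median was -0.59. Most of the 11 lay below that level. Whether their median differs from these backgrounds was not tested. miR-127-3p, which lies antisense to Rtl1, fell from 197, 164 and 243 RPM to 108, 89.3 and 38.1 RPM (-1.46 ± 0.32, limma adjusted p = 0.00056). miR-136-5p rose from 2.88, 2.96 and 0 RPM to 7.46, 9.60 and 15.8 RPM (2.20 ± 0.66, limma adjusted p = 0.0296), with 4, 4 and 0 reads in the control libraries. Its partner arm miR-136-3p, named after its values were seen, had the other sign (-0.99 ± 0.74, limma adjusted p = 0.518). Neither call held with the prior that ignores the trend or without control replicate 3, where limma called 0 entries of the table. The other abundant entries, miR-370-3p (0.52 ± 0.50, limma adjusted p = 0.649) and miR-493-5p (-1.06 ± 0.69, limma adjusted p = 0.407), did not pass. In total these entries went from 250 ± 54.6 to 123 ± 28.2 RPM, and without miR-127-3p from 48.3 ± 27.7 to 44.2 ± 10.0 RPM, with overlap. Whether these miRNAs and the cluster differ was not tested.

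**Figure D4:**
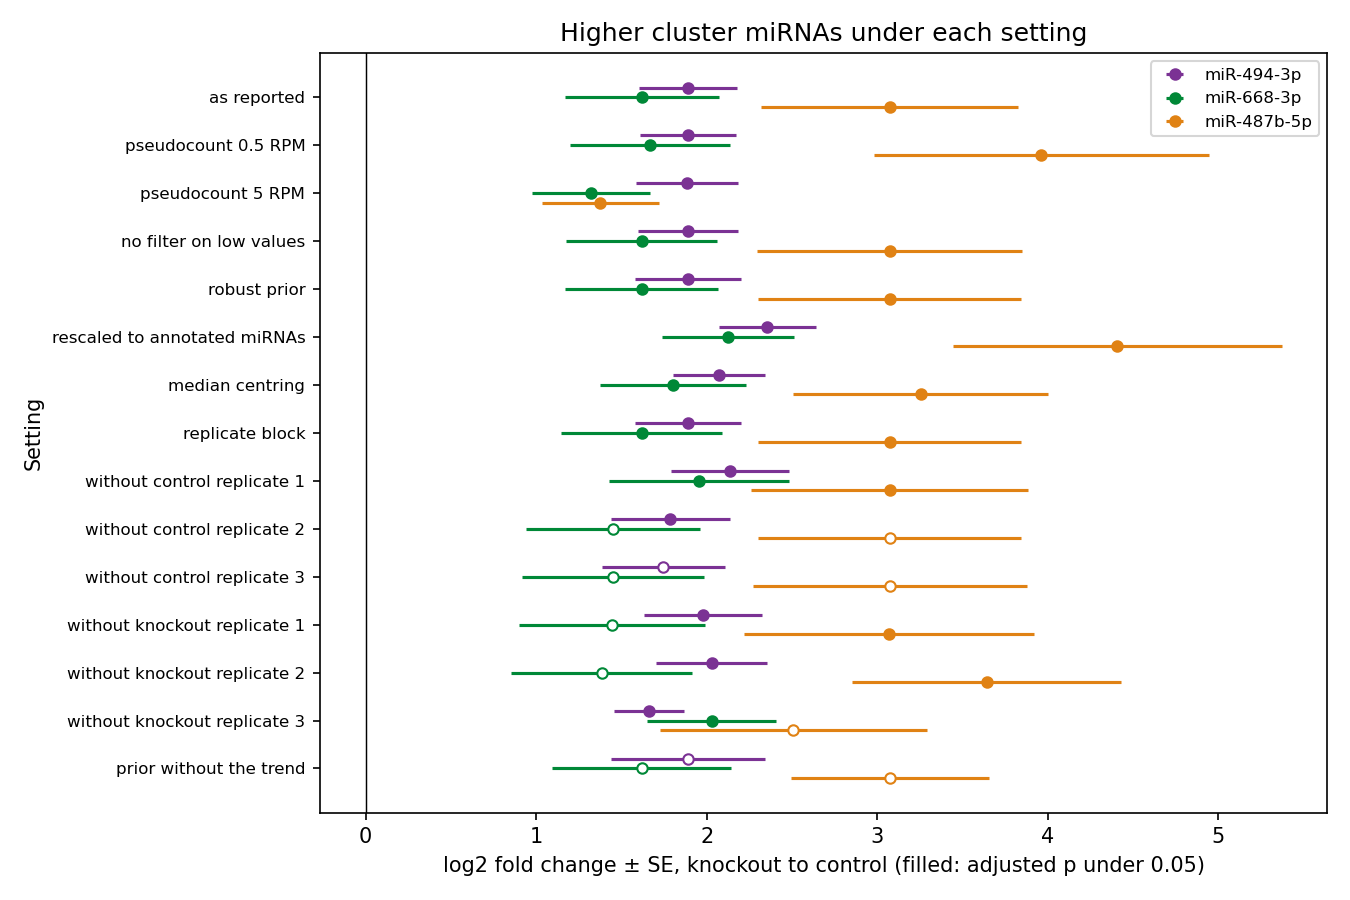
Log2 fold change with its SE for the 3 higher members under each setting of the analysis; filled points have an adjusted p under 0.05. All values lie above 0, and all 3 members are open under the prior without the trend and without control replicate 3. With no control reads, miR-487b-5p could only lie above 0.

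The share of mesenchymal miRNAs, the source that the osteoblast label names, was lower in the knockout libraries. So were the sums of the blood, endothelial and liver lists, and their part in the results was not tested. Annotated miRNAs outside the fragment-like list fell as a whole, with a knockout to control ratio of 0.730 in RPM. That ratio was 0.754 for the liver list, 0.604 for the mesenchymal list, and lower still for the blood and endothelial lists. Epithelial (1.05) and muscle (0.9999) sums stayed near the control level. Whether any list differs from the general fall was not tested. Mesenchymal miRNAs, with all 16 names of the list present, took 21.2% to 24.2% of reads in the control and 8.80% to 16.1% in the knockout libraries. Knockout replicate 3 was the lowest. Of 27 tested entries of this list, 24 had a log2 fold change below 0, miR-199a-5p, miR-214-3p and miR-143-3p among them. Not all fell: miR-218-5p was at 1.37 (limma adjusted p = 0.252) and miR-145a-5p at 0.11. Blood miRNAs summed to 633 to 895 RPM and 263 to 491 RPM, and endothelial ones to 85.1 to 105 RPM and 23.4 to 52.2 RPM. Epithelial (25.1 to 28.8 and 20.7 to 34.8 RPM) and muscle sums (118 to 149 and 118 to 152 RPM) overlapped between the groups. So did neural sums (18.4 to 37.7 and 4.35 to 23.7 RPM), and miR-124 had no entry in the table, while liver sums were 354 to 385 and 184 to 342 RPM. Of 7, 2, 7, 7, 6 and 3 names in these lists, in the order given, 7, 2, 7, 4, 4 and 3 had an entry.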

How the data were processed

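Small RNA libraries of 6 samples (3 control, 3 knockout, grouped by their titles) were analysed from 1 table of RPM values deposited by the authors. The submitters' processing notes name fastp and edgeR without role or version; no aligner, annotation or build is named in the sources used here. Each column sums to 1000000 over 1712 entries, 184 of them without a miRNA name. Dividing a column by 0.5 times its smallest value above 0 gave whole numbers throughout (tolerance 0.001), so that smallest value was taken as 2 reads; no entry is at 1 read, so these are not complete counts and no count test was run. Reads without molecular identifiers are not independent molecules, so depth covers counting error only.

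The 1114 entries that reached 1 RPM in 3 or more libraries were fitted on log2(RPM + 1) by limma 3.58.1 (R 4.3.3), its prior following the mean-variance trend. The added 1 RPM understates the change of low entries. Tests were 2-sided with Benjamini-Hochberg adjustment over all 1114 entries, and an adjusted p under 0.05 was called. The fitted prior had infinite degrees of freedom, and limma capped the total for each test at 4456. SEs and p-values therefore follow the trend alone, not the spread of each entry. The procedure was tested on simulated data in which all entries shared the same relative spread beyond counting error. That test could not check the trend-pooled spread on which the calls rest. Members and lists were chosen with earlier results of these data known. Named members are those called, the 12 most abundant, those averaging 10 RPM or more, those averaging 3 RPM or more whose groups stood apart, and their partner arms. Alternatives are given in the closing section.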

Additional observations from a re-analysis of the deposited data

How the results depend on the processing

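The number of higher members, miR-487b-5p included, was 3 under both other pseudocounts, no filter, the robust prior, rescaling to annotated miRNAs and median centring. With libraries left out, the count of higher members was 0 to 3: 1 without control replicate 2, 0 without control replicate 3 (where limma called 0 entries of the table, with 53 higher and 84 lower at p under 0.05 before adjustment), 2 without each knockout replicate and 3 without control replicate 1. With the filter repeated on the remaining libraries, a setting chosen after seeing the data, it was 1 to 3, in part because miR-487b-5p then no longer passed the filter when a knockout library was missing. With the prior that ignores the trend it was 0 (4 members at an unadjusted p under 0.05). The count of lower members was 0 in every setting run (2 to 5 at an unadjusted p under 0.05). The log2 fold change of miR-494-3p was 1.66 to 2.14 with a library left out and 2.35 after rescaling; it missed the threshold without control replicate 3 (1.75, limma adjusted p = 0.0637) and with the prior that ignores the trend (1.89, limma adjusted p = 0.201).

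The median of the members turned from -0.25 to 0.14 after rescaling and to 0.0725 without control replicate 1 with the filter repeated; without miR-494-3p these were 0.11 and 0.0599, against -0.26. The lowest medians with the filter repeated were -0.31 and, without miR-494-3p, -0.34, both without control replicate 3. With the same tested entries and a library left out the medians were -0.27 to -0.14, and -0.28 to -0.19 without miR-494-3p. Rescaling moved the median of all entries from -0.27 to 0.07. The ratio of cluster totals was 2.43 to 3.30 with a library left out and 4.08 after rescaling; without miR-494-3p it was 0.761 to 0.927 and 1.12. The cause of these shifts was not tested.

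No pairing by replicate number was seen: same-numbered deviations correlated at 0.01, -0.02 and 0.01. Such correlations cannot exclude a pairing, and the labels give none. With the replicate block 3 members were higher and 0 lower, and miR-494-3p stayed at 1.89 (limma adjusted p = 4.22e-07). Over the table, 30 lower entries became 15 with a pseudocount of 0.5 RPM or no filter, 17 with the robust prior and 11 with the block. A count test was not run, since the table holds no complete counts. For the 5p to 3p ratio, a minimum of 3 RPM gave a value for miR-409 only; other pseudocounts, priors, the block and left-out libraries apply to the minimum of 10 RPM, which no cluster hairpin reached in both arms, and were not run. For most members depth is the limit, at a few reads per library.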
